A study of Homo sapiens with 3 samples.

Results

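The genes described here are those of glycolysis and of the transcriptional response to low oxygen, 44 genes chosen by name. A gene counted as a member when its symbol had a row in the expression table, and 39 of the 44 did, out of 14949 genes. The members were sorted by role into 2 glucose transporters, 15 glycolytic enzymes, 2 enzymes that set the level of a glycolytic activator, 5 genes of pyruvate and lactate handling, 3 genes of oxygen sensing and 12 other targets of the hypoxia response. LDHB, EGLN3, CA9, BNIP3 and PLOD2 had no row and were not analysed here. The table lists genes that reach at least 0.503 CPM, the reads of a gene scaled to a common library total, in their highest library.

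RNA sequencing was performed on 3 libraries of MIAPaCa-2 cells, which are an established line from a human pancreatic carcinoma and are labelled as epithelial. The sh-CTL library came from cells with a control short hairpin and no treatment, the sh-METTL3 library from cells with a hairpin against METTL3 and no treatment, and the sh-CTL + PLK1i library, called PLK1i from here on, from control-hairpin cells given NMS-P937, an inhibitor of PLK1, for 24 h at 80 nM. METTL3 is the catalytic subunit of the complex that places N6-methyladenosine on RNA, and PLK1 is a kinase of mitosis. All cells grew in DMEM with 10% serum, and no reduced-oxygen condition is named in the labels. The methods of the study give the low-glucose form of this medium. The knockdown is represented by a single hairpin line that was a gift to the study, and a vehicle for the control is not named. The question of both comparisons is which transcripts differ when METTL3 is reduced or PLK1 is inhibited.

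Each group held 1 library, so no difference below has a replicate check and no p-value was computed. The 95% counting intervals, by the exact Clopper-Pearson method, are those of a read ratio between 2 libraries. They cover counting error only, set 2 libraries and not 2 conditions side by side, and treat amplified reads that carry no molecular identifier as if each were its own molecule. A difference is the log2 of the normalized count plus 1 in the sh-METTL3 or PLK1i library minus that in sh-CTL, and this scale understates differences of genes with few reads. Both comparisons share the sh-CTL library. Values in threes follow the order sh-CTL, sh-METTL3 and PLK1i, and differences in pairs give sh-METTL3 before PLK1i. In bulk RNA, fewer cells that express a gene and less of its RNA per cell cannot be told apart.

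The 3 libraries held 37449329 to 47727520 reads in listed genes. METTL3 had 3378, 1781 and 4223 reads, with differences of -1.25 (-1.34 to -1.17) and -0.02 (-0.08 to 0.05). PLK1 differed by -0.62 (-0.68 to -0.57) in sh-METTL3. Of 6 epithelial and ductal markers, KRT8, KRT18 and KRT19 had rows, at 3361 to 124197 reads, while KRT7, EPCAM and CDH1 had none. The mesenchymal gene VIM had 199813 to 267673 reads. Of 5 markers of immune, endothelial, stromal, islet and acinar cells only COL1A1 had a row, with 34, 6 and 36 reads. KRT8, KRT18 and KRT19 were 0.26 to 0.43 higher and VIM was 0.40 lower in sh-METTL3 than in sh-CTL. The genes around VIM on chromosome 10 had a median of -0.38 there. The part of these differences in the results below was not tested.

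Glycolysis converts glucose to pyruvate in the cytosol, and cancer cells commonly run it at a high rate and export the lactate. Low oxygen slows the prolyl hydroxylases that mark HIF1A and EPAS1, the alpha subunits of the hypoxia-inducible factors, for destruction through VHL. The stabilised factors join ARNT, bind DNA at the core letters ACGTG and raise transcription of glucose transporters, most glycolytic enzymes and genes of angiogenesis, collagen modification and mitophagy.

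The core letters were looked up in the promoters of the members, since both the enzymes and the other targets are known as genes of this factor. The search covered the 250 bases before the annotated start in RefSeq promoters of GRCh38.p14, on both strands, for 34 of the 39 members with such a window. At least 1 match was held by 20 of these 34 members (58.8%), against 29.0% of 10379 listed genes with a window. Among all 27305 genes with a window the share was 21.7%. Some members have several annotated starts, and a match at any of them was counted, as it was for the other genes. A gene with more starts has more chances of a match, and the shares are not corrected for this. Matches were found in 10 of 15 glycolytic enzymes, 4 of 4 genes of pyruvate and lactate handling, and 4 of 9 other hypoxia targets. The letters CACGTG hold the core on both strands and are also an E-box, bound by MYC and by BHLHE40, itself a member, and they occurred in 8 of the 34 members against 11.2% of the listed genes. A match is a description of the letters and not a bound site. The stretches below are shown as examples with more than 1 core match, from 3 genes of glycolysis, the lactate exporter and 2 other targets, with the core letters in capitals on whichever strand they lie. All run 5′ to 3′ on the strand of the gene.

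The HK2 stretch lies at chr2:74834956-74835046 on the plus strand, 214 to 124 bases before the second annotated start. The PGK1 stretch lies at chrX:78104026-78104089 on the plus strand. The LDHA stretch lies at chr11:18394358-18394514 on the plus strand.
HK2: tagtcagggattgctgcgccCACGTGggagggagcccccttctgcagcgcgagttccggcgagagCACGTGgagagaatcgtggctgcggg
PGK1: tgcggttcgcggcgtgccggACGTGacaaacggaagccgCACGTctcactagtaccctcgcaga
LDHA: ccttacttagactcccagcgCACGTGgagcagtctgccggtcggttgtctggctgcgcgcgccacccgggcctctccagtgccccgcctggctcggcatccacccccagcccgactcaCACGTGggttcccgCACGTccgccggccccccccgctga

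The SLC16A3 stretch lies at chr17:82228954-82229011 on the plus strand. The BHLHE40 stretch lies at chr3:4979187-4979312 on the plus strand, and the ANKRD37 stretch at chr4:185396659-185396722 on the plus strand.
SLC16A3: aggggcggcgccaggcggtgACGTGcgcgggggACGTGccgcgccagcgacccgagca
BHLHE40: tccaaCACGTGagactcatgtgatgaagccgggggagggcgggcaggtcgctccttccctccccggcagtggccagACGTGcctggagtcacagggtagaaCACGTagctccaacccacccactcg
ANKRD37: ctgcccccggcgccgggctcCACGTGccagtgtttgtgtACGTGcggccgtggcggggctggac

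The windows of EPAS1, HIF1A, ADM, P4HA2 and SLC2A1 held no such letters in the searched bases. The same was true of ENO1, PKM, PGAM1, HK1, PFKL, PFKFB4, PLOD1, KDM3A and MIF. The 6 genes printed above did not share a direction, as their values show below.

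In sh-METTL3, the median of the glycolytic enzymes stood at the level of sh-CTL. Their summed reads, in which the abundant GAPDH and PKM weigh most, were 0.07 higher in log2. Single genes of glucose trapping, lactate export and oxygen sensing stood apart. EPAS1, encoding HIF-2 alpha, and the transcriptional repressor BHLHE40 were more than 2-fold lower. The lactate exporter SLC16A3, HIF1A itself, the minor aldolase ALDOC and ANKRD37 were lower by at least 0.5 in log2, with HIF1A at -0.49 under upper-quartile scaling. The hexokinase HK2 and the mitophagy receptor BNIP3L were higher by at least 0.5. The median difference was -0.06 over the 39 members, 0.00 over the 15 enzymes and 0.00 over all genes.

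Those counts were 2 members higher and 6 lower by at least 0.5 in sh-METTL3, or 5.13% and 15.4% of the members, with 31 between. Among all 14949 genes, 9.63% were higher and 8.33% lower by this rule. At 2-fold, 0 members were higher and 2 were lower, against 3.42% and 2.94% of all genes. The counting interval lay above 0 for 14 members and below 0 for 17, against 27.1% and 28.2% of all genes. Small differences exceed counting error more often in abundant genes, and many members are abundant. At a mean of 500 normalized counts or more, 6 of 34 members (17.6%) and 6.74% of 9074 genes differed by at least 0.5 in either direction.

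In PLK1i, fewer members stood apart. Adrenomedullin (ADM) and BHLHE40 were higher by at least 0.5, and the collagen prolyl hydroxylase P4HA2 was lower. The other 36 members were between these bounds, and the median over the members was -0.01. The background was 5.18% of all genes higher and 5.77% lower. At 2-fold, 1 member was higher and 0 were lower, against 1.39% and 1.13% of all genes. Counting intervals lay above 0 for 12 members and below 0 for 16, against 23.1% and 22.8% of all genes. With a mean of at least 500, 2 of 34 members (5.88%) and 1.70% of all genes differed by at least 0.5.

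**Figure D1:**
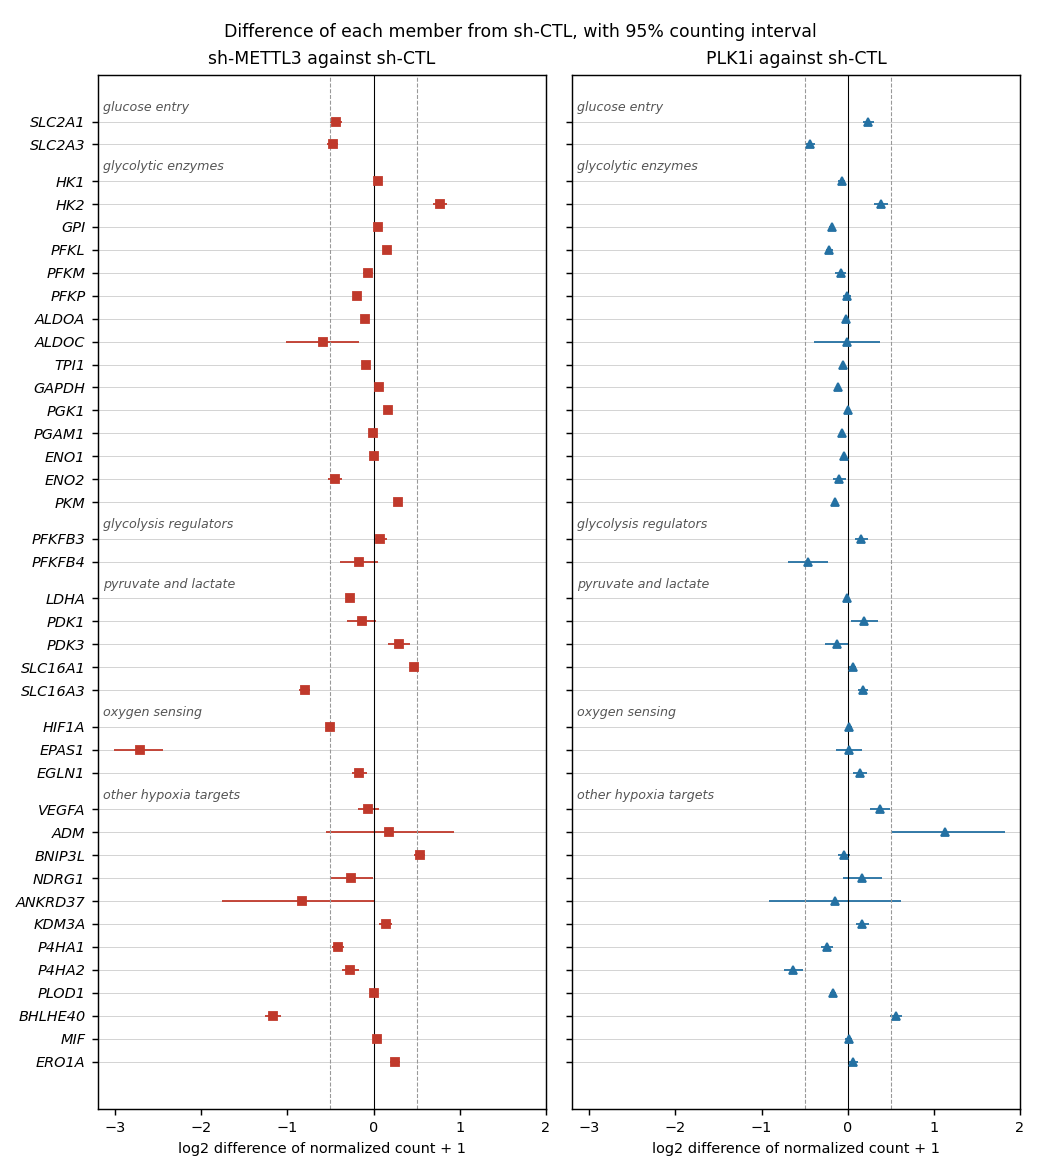
Differences of the 39 members in log2(normalized count + 1) from sh-CTL, in sh-METTL3 (squares, left) and PLK1i (triangles, right), with bars for 95% counting intervals and dashed lines at 0.5 on either side of 0. EPAS1 at -2.72 and BHLHE40 at -1.17 lie furthest left in sh-METTL3, and ADM at 1.13 lies furthest right in PLK1i with a wide bar.

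By level, GAPDH led the members. Per kilobase of the longest annotated transcript, GAPDH ranked first of the 39 members in all 3 libraries, at 142112 to 160640 normalized counts per kb. GAPDH also ranked first with the exon union or the canonical transcript as the length, while the order of the genes after it depended on the length used. ADM and ANKRD37 were among the 3 lowest members in every library by each length, and by the longest transcript they lay between 12.8 and 38.5 per kb.

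The 15 enzymes took 1.69%, 1.78% and 1.58% of the reads in listed genes, and the 12 other hypoxia targets took 0.104%, 0.105% and 0.102%. GAPDH alone took 0.607%, 0.635% and 0.556% of the reads.

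**Figure D2:**
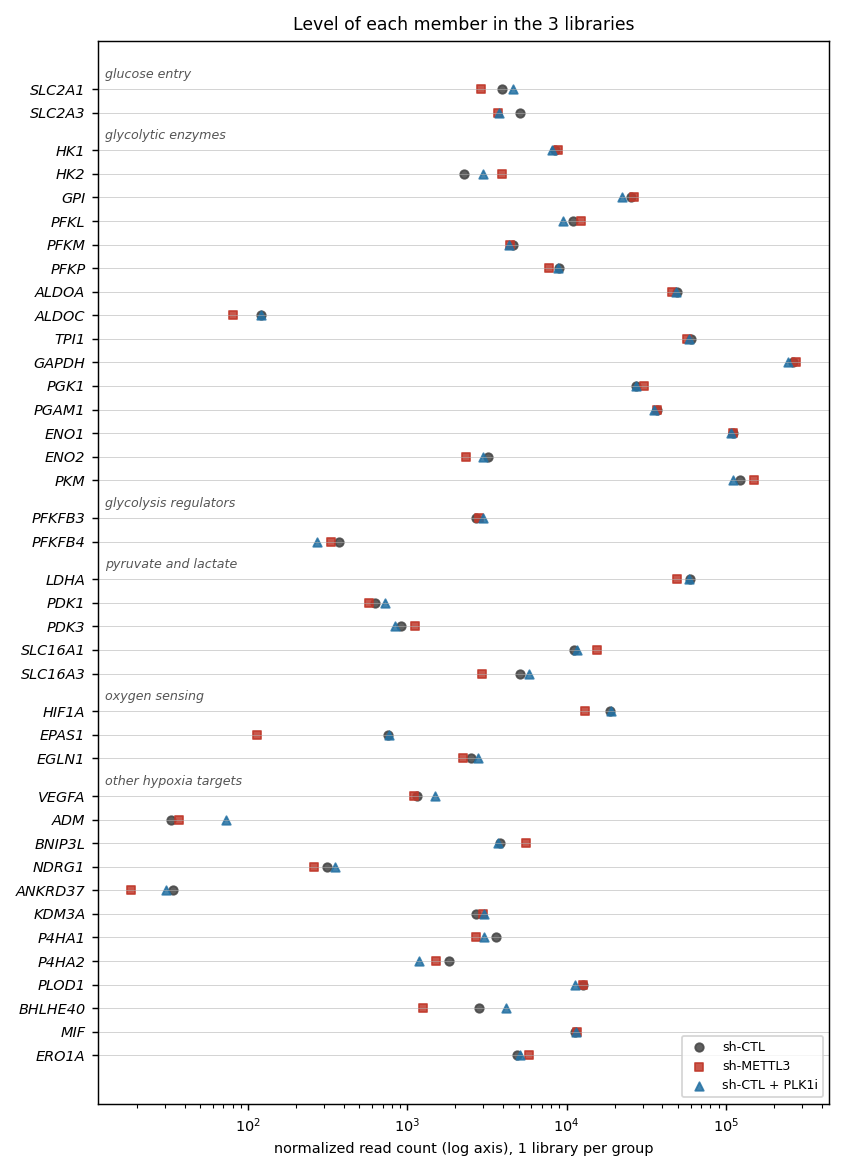
Normalized read counts of the 39 members on a log axis, grouped by role, with a circle for sh-CTL, a square for sh-METTL3 and a triangle for sh-CTL + PLK1i, 1 library each. The symbols of most enzymes nearly coincide, whereas the EPAS1 square at 114 lies far left of the other two symbols at 754 and 763.

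Glucose enters through the transporters SLC2A1 (GLUT1) and SLC2A3 (GLUT3). SLC2A1 had normalized counts of 3937, 2910 and 4641. Its differences were -0.44 (-0.51 to -0.37) and 0.24 (0.17 to 0.30). SLC2A3 had 5135, 3691 and 3790, with differences of -0.48 (-0.54 to -0.41) and -0.44 (-0.50 to -0.38). Both transporters were thus lower in sh-METTL3, and in PLK1i only SLC2A3 was. Per kb of the longest transcript both were at 1163 normalized counts in sh-CTL, and the SLC2A1 share of their sum was 50.7% in sh-METTL3 and 61.5% in PLK1i. With the exon union the share was 45.7%, 46.4% and 57.3%.

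Hexokinase traps glucose as glucose 6-phosphate, and HK1 and HK2 are both bound to mitochondria. HK2 (ENSG00000159399, GRCh37 chromosome 2, 75061254 to 75120486, plus strand) had 1961, 4215 and 3240 reads. Scaled to a common depth, these gave normalized counts of 2287, 3907 and 2983. HK2 was therefore highest in sh-METTL3, at 171% of sh-CTL with a difference of 0.77 (0.70 to 0.85), and at 130% with a difference of 0.38 (0.30 to 0.47) in PLK1i. HK1 had 8518, 8812 and 8113, with differences of 0.05 (0.00 to 0.09) and -0.07 (-0.12 to -0.03). The HK2 share of the summed HK1 and HK2 level per kb was 16.0%, 24.0% and 20.7%. The divergent transcript HK2-DT had 84, 170 and 111 reads, 3.43% to 4.28% of the HK2 reads in each library.

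The upper steps from GPI to aldolase lay close to sh-CTL. GPI, the isomerase that makes fructose 6-phosphate, differed by 0.06 (0.03 to 0.08) in sh-METTL3 and -0.19 (-0.21 to -0.16) in PLK1i. Phosphofructokinase, which commits sugar to the pathway, is built from PFKL, PFKM and PFKP. PFKL had 11051, 12356 and 9526 normalized counts, with differences of 0.16 (0.12 to 0.20) and -0.21 (-0.26 to -0.17). PFKP had 8950, 7815 and 8900, at -0.20 (-0.24 to -0.15) and -0.01 (-0.05 to 0.04). PFKM, the muscle subunit, was at -0.06 and -0.08. The genes around PFKP had a median of -0.14 in sh-METTL3. The PFKL share per kb was 31.3%, 36.2% and 28.7%, and the PFKP share was 46.7%, 42.1% and 49.3%. With the length of the exon union the PFKL share in sh-CTL was 40.9%, above that of PFKP at 38.0%, so the order of these subunits depends on the length used.

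Aldolase splits the sugar, and nearly all of its transcript was ALDOA, with 49282, 46032 and 48506 normalized counts and differences of -0.10 and -0.02. ALDOC, the minor form, had 104, 87 and 131 reads, which normalize to 121, 80.6 and 121. ALDOC was low in sh-METTL3 alone, at -0.58 with a wide interval of -1.02 to -0.16. Its annotated span overlaps RSKR on its own strand, which had 833, 1283 and 1130 reads and differences of 0.29 and 0.10. How reads in the overlap were assigned was not tested. The ALDOC share per kb was 0.361%, 0.257% and 0.365%.

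The lower steps make ATP and NADH. TPI1, the triose isomerase, differed by -0.09 (-0.10 to -0.07) and -0.05 (-0.07 to -0.03). GAPDH, the dehydrogenase often used as a reference gene, had 227262, 298093 and 265510 reads and differed by 0.06 (0.05 to 0.07) and -0.12 (-0.12 to -0.11). PGK1, the first enzyme to make ATP, differed by 0.16 (0.14 to 0.19) and 0.00 (-0.02 to 0.03), and the genes around it on chromosome X had a median of 0.11 in sh-METTL3. PGAM1 and ENO1 had intervals that held 0 in sh-METTL3 and differed by -0.06 and -0.05 in PLK1i.

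ENO2, the neuronal enolase that is also made in many tumours, had 3201, 2344 and 2996 normalized counts. Its difference was -0.45 (-0.53 to -0.37) in sh-METTL3 and -0.10 (-0.17 to -0.02) in PLK1i. ENO2 made up 2.54%, 1.87% and 2.45% of the summed ENO1 and ENO2 level per kb. PKM, the pyruvate kinase, had 105690, 161333 and 120978 reads and differences of 0.28 (0.27 to 0.29) and -0.15 (-0.16 to -0.13). PKM was thus the enzyme furthest above sh-CTL in sh-METTL3 after HK2, and its gene-level value does not separate its splice forms.

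In sh-METTL3 the 15 enzymes were split evenly around sh-CTL, with 8 above 0 and 7 below, 7 intervals above 0 and 6 below. Of all 14949 genes, 7505 were above 0 and 7443 below, with 27.1% of intervals above 0 and 28.2% below. The 3 enzymes furthest from 0 were HK2, ALDOC and ENO2, each the less abundant isoenzyme of its step among the members. HK2 was above 0, and ALDOC and ENO2 were below. The other 12 lay between -0.20 and 0.28, among them PFKM, the least abundant phosphofructokinase per kb, at -0.06. The grouping of HK2, ALDOC and ENO2 was noticed after their values were seen. In PLK1i, 13 of the 15 enzymes were below 0 and 2 above, with 11 intervals below 0 and 1 above. Of all genes, 7389 were below 0 and 7554 above, with 22.8% of intervals below 0 and 23.1% above. Most of these enzymes are abundant, and intervals of abundant genes exclude 0 at small differences. The enzyme median was -0.06 against 0.00 for all genes. PGK1, 1 of the 2 enzymes above 0, lay at 0.00 and took either sign depending on the scaling. The enzyme differences in PLK1i were small, from -0.21 to 0.38, and 0 enzymes reached 0.5. Summed over the 15 enzymes, the reads differed by 0.07 (0.06 to 0.07) in sh-METTL3 and by -0.09 (-0.10 to -0.09) in PLK1i. GAPDH and PKM, the enzymes with the most reads, weigh most in this sum. Their normalized counts were 265008, 276301 and 244432 for GAPDH and 123244, 149539 and 111374 for PKM. The sum is therefore not a value of the enzymes as a group. Reads of pseudogenes of GAPDH, TPI1, PGAM1, ENO1 and LDHA, of which TPI1P1 had the highest share at 1.18% of the parent gene's reads in sh-CTL, cannot be told apart from reads of the parent genes by these values.

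**Figure D3:**
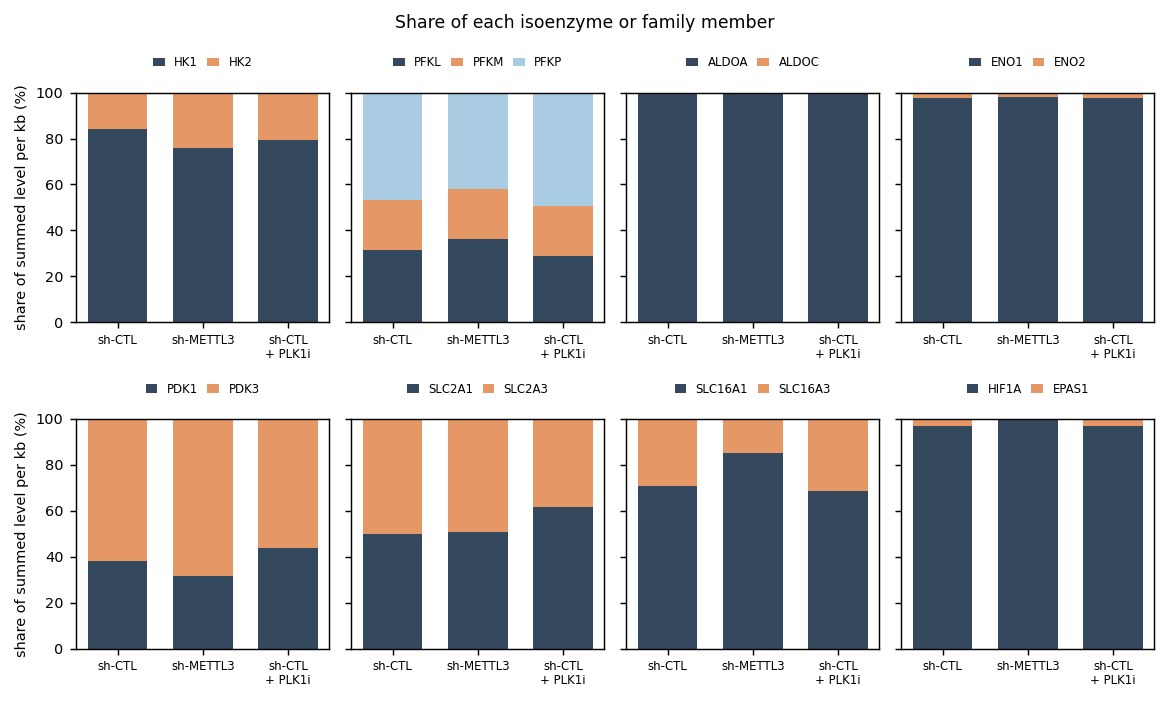
Stacked bars give the share of each isoenzyme or family member in the summed level per kilobase of the longest transcript, in percent, for 8 families in the 3 libraries, 1 library per bar and without error bars. The HK2 segment goes from 16.0% in sh-CTL to 24.0% in sh-METTL3, and the SLC16A3 segment from 29.4% to 14.7%.

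PFKFB3 and PFKFB4 make fructose 2,6-bisphosphate, the activator of phosphofructokinase. PFKFB3 had 2684, 2835 and 2999 normalized counts, with differences of 0.08 (0.00 to 0.16) and 0.16 (0.08 to 0.24), while its neighbours on chromosome 10 had a median of -0.20 in sh-METTL3. PFKFB4 had 319, 357 and 294 reads, at -0.17 (-0.39 to 0.05) and -0.46 (-0.69 to -0.23). PFKFB4 was thus lowest in PLK1i and within counting error of sh-CTL in sh-METTL3.

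Pyruvate is reduced to lactate by lactate dehydrogenase or enters mitochondria, where pyruvate dehydrogenase kinases such as PDK1 and PDK3 restrain its oxidation. LDHA, the main muscle-type subunit, had 50887, 53151 and 64202 reads, which normalize to 59339, 49265 and 59105. Its difference was -0.27 (-0.29 to -0.25) in sh-METTL3 and -0.01 (-0.02 to 0.01) in PLK1i. LDHA was thus at 83.0% of sh-CTL in sh-METTL3 and at 99.6% in PLK1i.

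PDK1 had 631, 575 and 723 normalized counts, with differences of -0.13 (-0.30 to 0.03) and 0.20 (0.04 to 0.36). PDK3 had 918, 1124 and 840, with 0.29 (0.16 to 0.42) and -0.13 (-0.27 to 0.01). PDK1 and PDK3 thus lay on opposite sides of sh-CTL in each library, although 1 of the intervals of each held 0. The genes around PDK3 had a median of -0.20 in sh-METTL3. The PDK1 share of both per kb was 38.3% in sh-CTL by the longest transcript but 7.84% by the canonical transcript, so no order of level is drawn between them.

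Lactate leaves through the proton-coupled transporters SLC16A1 (MCT1), which carries lactate in both directions, and SLC16A3 (MCT4), the exporter of strongly glycolytic cells. SLC16A3 (ENSG00000141526, GRCh37 chromosome 17, 80175810 to 80219005, plus strand) had 4399, 3175 and 6320 reads. Its normalized counts were 5130, 2943 and 5818. SLC16A3 was lowest in sh-METTL3, at 57.4% of sh-CTL with a difference of -0.80 (-0.87 to -0.74), and at 0.18 (0.13 to 0.24) in PLK1i.

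SLC16A1 went the other way in sh-METTL3. It had 9582, 16699 and 12629 reads, with differences of 0.47 (0.43 to 0.51) and 0.06 (0.02 to 0.10). The SLC16A3 share of both transporters per kb was 29.4%, 14.7% and 31.2%, and with the canonical transcript it was 39.9%, 21.5% and 41.9%. The span of SLC16A3 overlaps CSNK1D on the opposite strand, whose differences were 0.04 and -0.00, and the unnamed gene ENSG00000280407 on its own strand with 62, 26 and 86 reads. The library kit keeps strand, but the strand setting used in counting is not given in the sources used here.

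Oxygen sensing held the largest difference among the members, that of EPAS1 in sh-METTL3. EPAS1 (ENSG00000116016, GRCh37 chromosome 2, 46520806 to 46613836, plus strand) had 647, 123 and 829 reads. These normalize to 754, 114 and 763. EPAS1 in sh-METTL3 was at 15.1% of sh-CTL, a difference of -2.72 (-3.02 to -2.45), whereas in PLK1i it was within counting error of sh-CTL at 0.02 (-0.13 to 0.17). The genes around EPAS1 had a median of 0.01 in sh-METTL3.

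HIF1A (ENSG00000100644, GRCh37 chromosome 14, 62162231 to 62214977, plus strand), the widely expressed alpha subunit, had 16004, 14145 and 20534 reads. These normalize to 18662, 13111 and 18904, so that HIF1A was low in sh-METTL3 alone. The differences were -0.51 (-0.54 to -0.48) and 0.02 (-0.01 to 0.05). EPAS1 was a small part of the summed HIF1A and EPAS1 level per kb, at 3.01%, 0.663% and 3.01%. EGLN1, the prolyl hydroxylase that marks both subunits, had 2501, 2233 and 2762 normalized counts, with differences of -0.16 (-0.25 to -0.08) and 0.14 (0.06 to 0.22). Transcript levels of these factors do not give their protein levels, which oxygen controls by degradation.

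Among the other hypoxia targets, BHLHE40 (ENSG00000134107, GRCh37 chromosome 3, 5021122 to 5027008, plus strand) differed most from sh-CTL in sh-METTL3. BHLHE40 had 2413, 1352 and 4506 reads, or normalized counts of 2814, 1253 and 4148. It was at 44.5% of sh-CTL in sh-METTL3, a difference of -1.17 (-1.26 to -1.07), and at 147% in PLK1i, a difference of 0.56 (0.49 to 0.63). BHLHE40 was the only member past 0.5 in both comparisons, with opposite signs.

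BNIP3L, a receptor that targets mitochondria for autophagy, had 3833, 5560 and 3717 normalized counts. Its difference was 0.54 (0.47 to 0.60) in sh-METTL3 and -0.04 (-0.11 to 0.02) in PLK1i. BNIP3L overlaps PNMA2 on the opposite strand, which had 2551, 5344 and 3092 reads and differences of 0.74 and -0.06, so their reads are uncertain unless strand was used in counting. ERO1A, an oxidase of protein folding in the endoplasmic reticulum, had 4201, 6264 and 5543 reads and differed by 0.25 (0.19 to 0.30) and 0.06 (0.00 to 0.12).

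Of the secreted targets, VEGFA and ADM were higher in PLK1i. VEGFA, the main angiogenic factor of hypoxia, had 992, 1197 and 1631 reads, with differences of -0.06 (-0.18 to 0.06) and 0.38 (0.26 to 0.49). ADM, the vasodilator peptide adrenomedullin, had only 28, 40 and 79 reads. It was at 223% of sh-CTL in PLK1i, a difference of 1.13 (0.52 to 1.83), and at 0.18 (-0.55 to 0.93) in sh-METTL3. MIF, a cytokine made at a high level in all 3 libraries, differed by 0.04 and 0.01, or by -0.03 and -0.05 with a GC and length trend removed.

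The collagen-modifying enzymes P4HA1, P4HA2 and PLOD1 hydroxylate proline or lysine with oxygen as a substrate. P4HA2 had 1572, 1642 and 1286 reads, or 1833, 1522 and 1184 normalized counts, the lowest in PLK1i. Its differences were -0.27 (-0.37 to -0.17) and -0.63 (-0.74 to -0.52), and PDLIM4, which overlaps it on the opposite strand, differed by 0.15 in PLK1i. P4HA1 had 3592, 2697 and 3048 normalized counts, at -0.41 (-0.49 to -0.34) and -0.24 (-0.31 to -0.17). Both proline hydroxylases were thus below sh-CTL in both libraries, while PLOD1 was at 0.01 (-0.03 to 0.05) and -0.17 (-0.20 to -0.13).

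The remaining targets differed less or had few reads. The histone demethylase KDM3A was at 0.14 (0.06 to 0.22) and 0.17 (0.09 to 0.25). NDRG1, a stress-response gene, had 267, 281 and 381 reads, at -0.26 (-0.50 to -0.01) and 0.17 (-0.06 to 0.40). ANKRD37 had 29, 20 and 33 reads, and its difference of -0.83 in sh-METTL3 had an interval from -1.77 to 0.00, so that a difference from sh-CTL was not detectable at this depth.

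**Figure D4:**
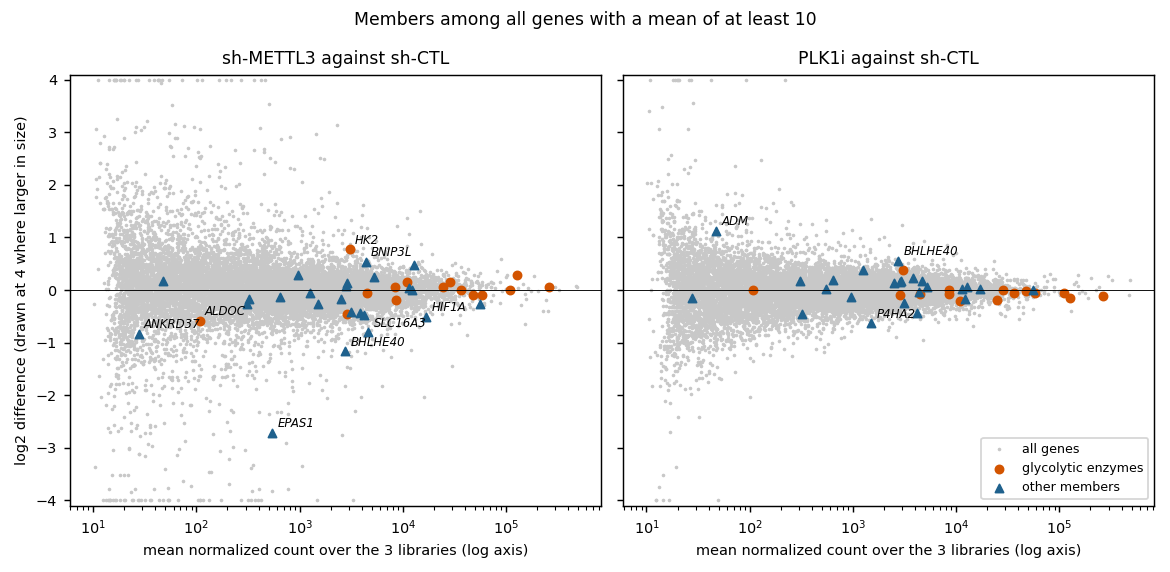
Log2 difference from sh-CTL against the mean normalized count over the 3 libraries (log axis) for all genes with a mean of at least 10 (grey), glycolytic enzymes (orange circles) and other members (blue triangles), with members past 0.5 named. Most enzymes lie at the right of the cloud near 0, whereas HK2 lies at 0.77 and EPAS1 at -2.72 in the left panel.

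Set side by side, the 15 enzymes and the 12 other hypoxia targets had medians of 0.00 and -0.03 in sh-METTL3, and of -0.06 and 0.04 in PLK1i. The quartiles were -0.09 and 0.11 for the enzymes and -0.30 and 0.15 for the other targets in sh-METTL3, and -0.11 and -0.02 against -0.15 and 0.22 in PLK1i. For all genes the quartiles were -0.18 and 0.19, and -0.15 and 0.14. Past 0.5 in either direction were 2 of 15 enzymes and 3 of 12 other targets in sh-METTL3, against 18.0% of all genes, and 0 of 15 and 3 of 12 in PLK1i, against 11.0%. With groups this small and 1 library per condition, a difference between enzymes and other targets was not tested. The other targets were also the less abundant group, in which counting error is larger. Over the 24 members that are not enzymes the median was -0.17 in sh-METTL3 and 0.04 in PLK1i.

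The neighbouring genes gave the local background of a chromosome stretch, as the median of up to 25 genes on each side with a mean of at least 50. For the 8 members past 0.5 in sh-METTL3 these medians lay between -0.08 and 0.10, and for the 3 in PLK1i between 0.04 and 0.05. None of these medians lay as far from 0 as the member itself, which says little for members picked by the size of their difference. With the neighbour median subtracted, HIF1A was at -0.43 and BNIP3L at 0.48 in sh-METTL3, short of 0.5. The others stayed past 0.5 in both comparisons. Single genes nearby did differ more in sh-METTL3. PNMA2 was at 0.74 against 0.54 for BNIP3L, which it overlaps. ENSG00000280407 was at -1.55 against -0.80 for SLC16A3, which it overlaps.

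Further genes of the same pathways, from lists chosen by role, gave context. Their counts are to be read against the shares of all genes past 0.5 in log2, which were 9.63% higher and 8.33% lower in sh-METTL3 and 5.18% higher and 5.77% lower in PLK1i. Of 17 other glucose transporters and isoenzymes with a row, 4 were higher and 3 lower by at least 0.5 in sh-METTL3, and 3 were higher and 0 lower in PLK1i. SLC2A13, a proton-coupled inositol transporter of the same family, had 82, 215 and 114 reads and differed by 1.05 in sh-METTL3. The lactate dehydrogenases LDHD and LDHC differed by 0.95 and -0.81 there, each on 110 reads or fewer in every library. HKDC1, a further hexokinase, differed by -0.57 (-0.88 to -0.27) in sh-METTL3 and 0.44 (0.18 to 0.71) in PLK1i, and PFKFB2, a relative of PFKFB3, by -0.56 and -0.25. The counts of this list also include SLC2A8, PGAM4 and ENO3, which had 10 to 71 reads and means below the rule for named genes, and which are named here after their values were seen.

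Of 13 genes of pyruvate dehydrogenase, pyruvate entry and lactate transport, 1 was higher and 1 lower in sh-METTL3, and 0 passed 0.5 in PLK1i. PDK4, the kinase of this family tied to fasting and fat oxidation, had 22, 246 and 32 reads. PDK4 was thus high in sh-METTL3 alone, with a difference of 3.10 (2.52 to 3.85) against 0.19 (-0.63 to 1.05). PDP1, a phosphatase that reactivates pyruvate dehydrogenase, differed by -0.53 (-0.65 to -0.42) in sh-METTL3.

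The pentose phosphate pathway, which branches from glucose 6-phosphate, had 0 of 7 genes past 0.5 in either comparison. The other oxygen-sensing genes, among them ARNT, VHL, EGLN2 and HIF1AN, also had 0 of 11, with differences that spanned -0.18 to 0.17 in sh-METTL3 and -0.26 to 0.29 under PLK1i. EPAS1 and HIF1A lay outside the range of these 11 genes in sh-METTL3.

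Of 30 further hypoxia targets, 2 were higher and 3 lower in sh-METTL3, and 2 were higher and 1 lower in PLK1i. The transcription factor MAFF differed by 0.50 and 0.73. PPFIA4, a liprin, had 205, 541 and 247 reads and differed by 1.07 in sh-METTL3, while the carbonic anhydrase CA12 and the ephrin EFNA1 differed by -0.91 and -0.66 there. ZNF395 differed by -0.52 in PLK1i. The medians of these 30 genes were -0.05 and 0.01.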

How the data were processed

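RNA libraries were made with the TruSeq stranded mRNA kit from RNA extracted with ISOGEN, per the labels. The submitters' processing notes name FastQC 0.11.9, STAR 2.7.10, RSEM 1.3.3 and the build hg19, and their roles and the normalization are not given in the sources used here. The authors deposited 1 table of log2 values for 14949 genes and 3 libraries, with no column of their own comparisons. The column names were matched to the sample titles by their abbreviations, and 0 columns of values were left without a sample.

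The deposited log2 values followed the log2 of 4 plus a scaled read count. With 4 subtracted from the linear values, 1 read was worth 1.17, 0.927 and 0.921 in sh-CTL, sh-METTL3 and sh-CTL + PLK1i, and 100% of the values above 0 and under 2000 reads lay within 0.1 of a whole number (10708, 9950 and 9848 values). Normalized counts are the deposited scale without the offset. Differences used a pseudocount of 1. A gene was counted at a log2 difference of at least 0.5 in size, or at 2-fold. No test across samples was run. At most 3 reads in a library was taken as the floor, and 0 members were there.

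Gene positions and transcript lengths came from GENCODE 44 mapped to GRCh37, with 14858 of 14949 identifiers found. Promoters came from RefSeq on GRCh38.p14 and share no coordinates with the expression files. Python 3.11.15, numpy 2.4.6, pandas 2.3.3, scipy 1.17.1, statsmodels 0.14.6 and matplotlib 3.10.9 were used. Recovery of reads and the intervals were tested on simulated data.

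The members and gene lists were chosen with earlier results of these data known. All members were named, with METTL3 and PLK1 as checks of the labels, the marker genes in a single passage, and from the pathway lists the genes with a mean of 50 normalized counts or more and a difference of at least 0.5 in either comparison, at most 10 per list. Values of 1 further target chosen by this rule are not reported here. Alternatives were other pseudocounts (0.5 and 4), scalings (median of ratios, upper quartile, total reads, TMM), a GC and length trend, a filter at a mean of 200, values without recovery of reads, neighbour-corrected values, means for medians, members with pseudogenes left out, and other transcript lengths.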

Additional observations from a re-analysis of the deposited data

How the results depend on the processing

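Of 624 member differences recomputed under other pseudocounts, scalings, a GC and length trend and unrecovered values, 610 stayed within their counting interval and 0 of those past 0.5 changed sign. MIF in sh-METTL3, whose interval lay just above 0 at 0.04, was -0.03 with the GC and length trend removed. The 14 that moved were 9 under upper-quartile scaling, 4 under the GC and length trend and 1 under total reads, all in abundant genes with narrow intervals. No scaling moved the median of all genes by over 0.02, so a value past 0.5 had little room to change sign under a scaling. The other pseudocounts, the median of ratios and the unrecovered values nearly repeat the main setting. Their largest median shift over all genes was -2.3e-06, so the count of 610 says little about them. The enzyme median in sh-METTL3 (0.00) was 0.028 after the neighbour median was subtracted and 0.049 with genes that have a pseudogene in the table left out. The median of the other hypoxia targets there (-0.03) was -0.15 as a mean and 0.01 after neighbour medians were subtracted. The count of members higher in sh-CTL + PLK1i (2) was 1 at a mean of at least 200, which removes ADM with its 28 to 79 reads. The count lower in sh-METTL3 (6) was 5 under upper-quartile scaling, where HIF1A was -0.49, and 4 at a mean of at least 200, without ALDOC and ANKRD37. After the neighbour median was subtracted, HIF1A was -0.43 and BNIP3L was 0.48 there, both short of 0.5. Isoenzyme shares moved with the transcript length, and the canonical length was chosen after seeing the data. The HK1 share of HK1 and HK2 in sh-CTL was 84.0%, and 76.2% with the exon union or 85.3% with the canonical transcript. It was lowest in sh-METTL3 by all 3 lengths, but for a pair of genes a change of length cannot alter the order of the libraries. No paired analysis was possible because each group held 1 library, and for the same reason no library could be left out. Differences of the members with the fewest reads, ADM, ANKRD37 and ALDOC, rest on wide intervals, and no value measures the variation between cultures.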

Other observations

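Transcripts that share sequence or a start with members were counted in few reads. The pseudogene LDHAP4 had 343, 360 and 443 reads in sh-CTL, sh-METTL3 and sh-CTL + PLK1i, 0.674% to 0.690% of the LDHA reads in each library. PGAM1P7 had 40, 13 and 87 reads and ENO1P1 had 5, 7 and 43, each under 0.3% of the reads of its parent gene. SLC16A1-AS1, on the strand opposite to SLC16A1, had 386, 565 and 470 reads.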
